A study of Mus musculus with 16 samples.

Results

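M-133- cells from the livers of mice fed DDC were compared with M+133+ cells from untreated livers, to find which genes of the bile duct reached the level of resting M+133+ cells and which stayed apart from it. The cells came from c129/S3 mice on a Purina diet and were taken from the non-parenchymal fraction of the dissociated liver. They were sorted on a flow cytometer by the surface antigens MIC1-1C3 (M) and CD133 (133), and M-133- cells carried neither. DDC was added to the diet at 0.1% for 2 weeks, while untreated mice got the diet alone. The comparison used 8 of the 14 samples of the series, 4 M-133- DDC samples (4 arrays) and 4 M+133+ untreated samples (5 arrays, since sample 1 was hybridised again). The groups were taken from the labels for antigen status and diet. M-133- untreated cells (2 samples on 3 arrays) served as the level of the same sort without DDC. M+133+ DDC cells (4 samples) entered the fit as a further group, and a count of duct genes against them is given. No label says that samples of a group came from separate animals, so p-values measure the spread between these samples. M-133- DDC and M+133+ untreated cells differ in sort and in diet, and those effects cannot be told apart in that comparison alone.

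Bile ducts are lined by cholangiocytes, which modify bile by secreting chloride, bicarbonate and water. Their keratins Krt7 and Krt19 are hardly made by hepatocytes, whereas Krt8 and Krt18 are the keratins of hepatocytes as well as of ducts. Duct identity in the liver is tied to transcription factors such as Sox9 and Grhl2. DDC disturbs heme synthesis, and mice fed it develop plugs of porphyrin in bile ducts and a ductular reaction, an outgrowth of duct-like cells around the portal vein.

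RNA was amplified, labelled with Cy3 and measured on Agilent mouse arrays. All levels are log2 signal minus the 75th percentile of the array, so 0 is the 75th percentile, and levels of different genes are not comparable because each probe binds differently. A difference is M-133- DDC minus M+133+ untreated on this log2 scale unless said otherwise. A gene was called at an adjusted p under 0.05 in a limma fit over all 23285 genes tested. On the 9 arrays compared, the 75th percentile lay between 1418 and 2732 intensity units, and the share of probes well above background was 59.7% to 77%. Correlations across genes were 0.83 to 0.851 among M-133- DDC samples, 0.847 to 0.915 among M+133+ untreated samples and 0.702 to 0.769 between the groups, with genes as points, which are no replicates. Precision is limited by the number of arrays. In such sorted bulk samples, fewer cells of a type and less RNA per cell cannot be told apart.

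Prom1, which encodes the CD133 antigen used in the sort, was read first, to test the labels. Its level was -7.32, -3.52, -6.43 and -8.63 in M-133- DDC samples 1 to 4 and 1.72, 1.82, 1.13 and 1.66 in M+133+ untreated samples 1 to 4. The groups did not overlap, and the difference of -8.06 only restates the sort. This probe was well above background on 1 of the 4 M-133- DDC arrays, and a second probe, with a difference of -6.80, on 2.

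Of 23285 genes, 3549 were called between the groups (15.2%), 1722 higher in M-133- DDC cells (7.4%) and 1827 lower (7.85%). The median difference over all genes was -0.26. With the array slide as a fixed block, 1853 genes were called. Beside this background, 59 of the 104 duct genes tested were lower in M-133- DDC cells, 4 were higher and 41 were not called. The gene lists were chosen with earlier results of these data known. Their counts beside the shares of all genes are therefore a description and no test of the lists. The listed duct genes were grouped as keratins and junctions, transcription factors, transport, and secreted products. Tff3, a mucosal trefoil peptide, was on the array but too dim to be tested. The median difference of the duct genes was -3.40. The sample values of the groups did not overlap in 67 of the 104 duct genes and in 21% of all genes tested. With the slide as a fixed block, 51 duct genes were lower and 2 higher. Against M+133+ DDC cells, 68 of the 104 duct genes were lower and 5 higher in M-133- DDC cells, where 6.43% and 6.47% of all genes were (12.9% in all). The 41 duct genes not called were split by the 95% interval of the difference. In 18 the lower end was above -2, so a level more than 4-fold below that of M+133+ untreated cells lay outside the interval. In 23 the interval reached -2 and the comparison was unresolved. Over all genes tested, 45.3% fell in the former class and 39.5% in the latter, shares that the 18 and 23 of 104 duct genes did not reach.

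**Figure D1:**
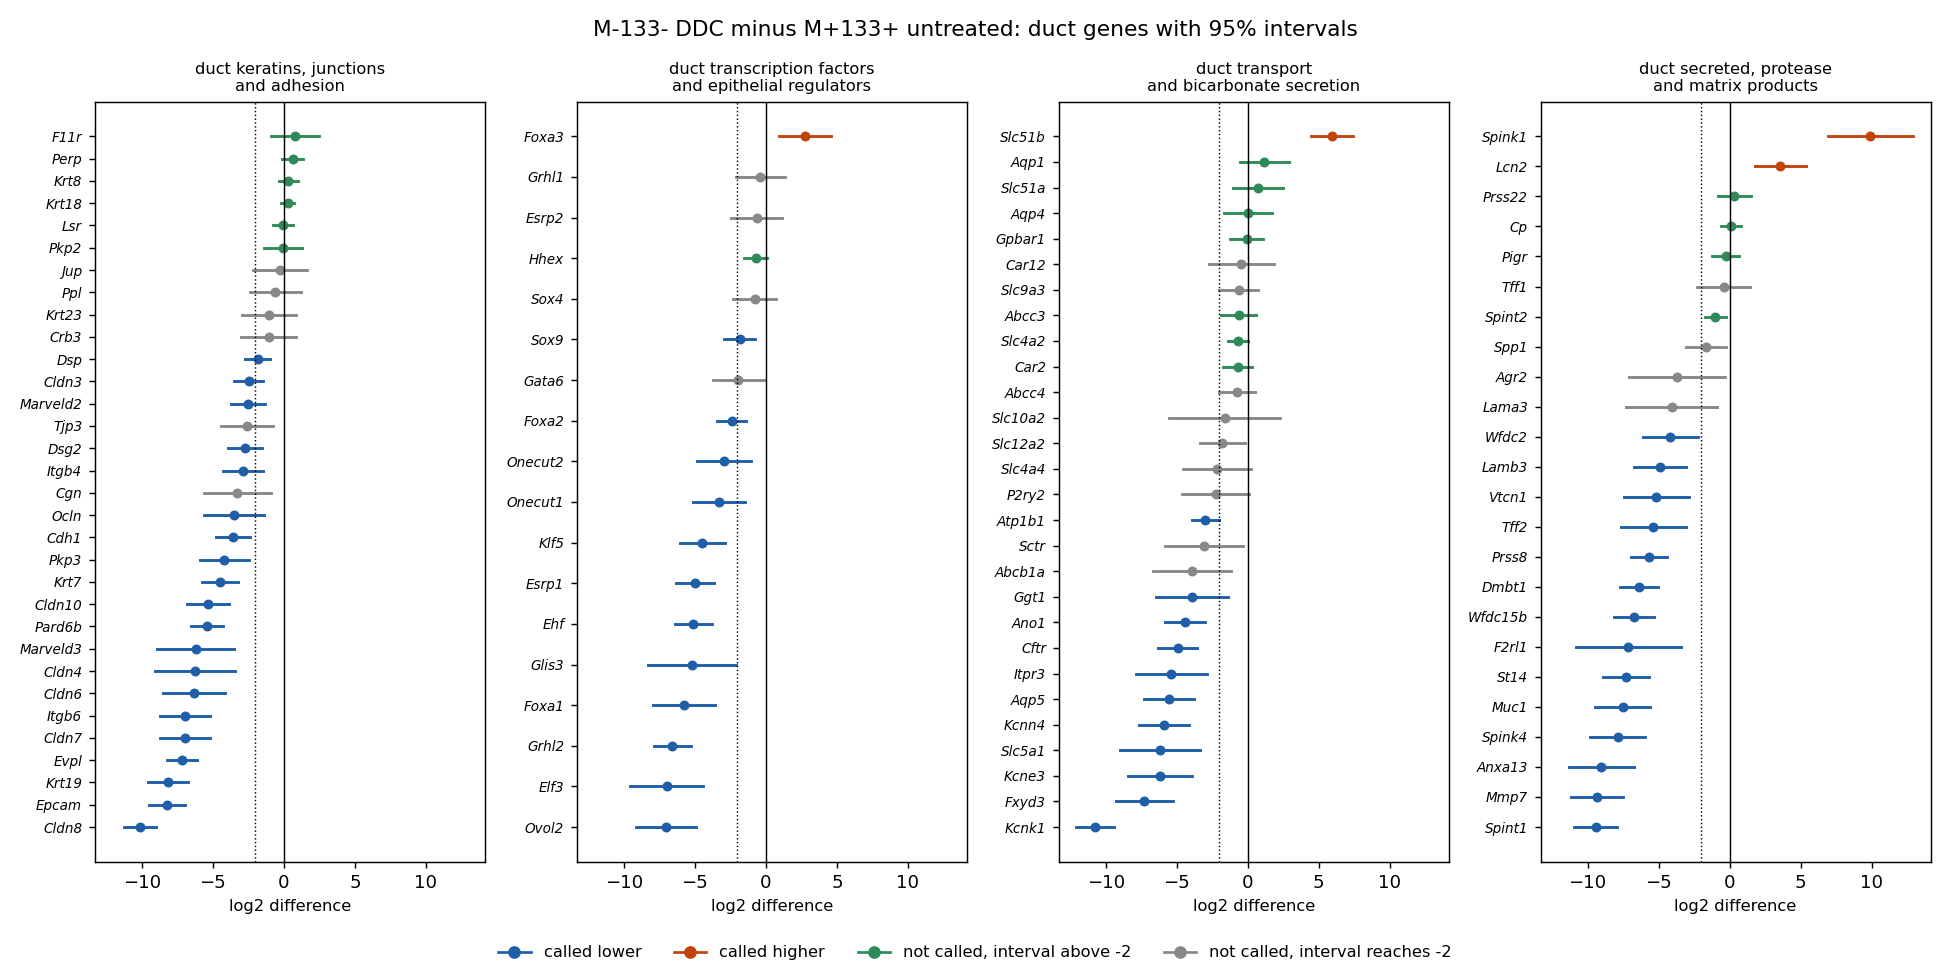
Log2 differences (M-133- DDC minus M+133+ untreated, 4 samples each) of 102 of the 104 duct genes in their 4 groups, as points with 95% intervals, with a dotted line at -2. The genes called lower extend from Dsp and Sox9 near -1.8 to Kcnk1 at -10.73, while Krt8, Krt18, Lsr and Cp lie near 0.

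The duct genes that M-133- DDC cells reached included the keratin pair Krt8 and Krt18, the type II and type I keratins that assemble with each other into the filaments of simple epithelia. Krt8 (probe on chromosome 15, mm9, 101827346 to 101827405) was at 6.09, 5.08, 6.62 and 6.06 in M-133- DDC samples 1 to 4. It was at 5.65, 5.60, 5.64 and 5.72 in M+133+ untreated samples, so that the M-133- DDC samples lay on either side. The difference was 0.31 (95% interval -0.34 to 0.96, SE 0.31, adjusted p = 0.563), and a second probe gave 0.48. Krt18 (chromosome 15, mm9, 101862341 to 101862400) was at 6.44, 5.79, 6.34 and 6.46 in M-133- DDC samples and at 6.03, 5.77, 5.88 and 6.31 in M+133+ untreated samples. Its values overlapped, and the difference was 0.26 (95% interval -0.22 to 0.75, adjusted p = 0.498). Within slides 2 and 5, which hold arrays of both groups, the difference was 0.38 and 0.22 for Krt8 and 0.22 and 0.24 for Krt18. On both slides the M+133+ untreated array was of sample 1, so these values share that sample and are not independent. No other slide held both groups, so slide and group are largely confounded. Quantile normalization, which moved the median difference of all genes from -0.26 to 0.12, turned the sign of these small differences, to -0.39 for Krt8 and -0.43 for Krt18, and neither was called.

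M-133- untreated cells were far from this level. There Krt8 was at 2.52 and 2.30 and Krt18 at 4.47 and 3.90, below every M-133- DDC and M+133+ untreated sample. M-133- DDC exceeded M-133- untreated by 3.55 for Krt8 (11.7-fold, SE 0.38, adjusted p = 0.000346) and by 2.08 for Krt18 (4.21-fold, SE 0.28, adjusted p = 0.00195). Only 234 genes (1%) were called between M-133- DDC and M-133- untreated cells, 142 of them higher (0.61%) and 92 lower (0.395%), and 12 of the higher genes were duct genes. This contrast shares the M-133- DDC samples with the main comparison and has 2 samples on its other side.

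Spp1, which encodes osteopontin, a secreted phosphoprotein of duct cells, showed the most significant rise among the 12. Its probe lies on chromosome 5 (mm9, 104869788 to 104869847). It was at -6.29 and -2.79 in M-133- untreated samples and at 5.56, 3.24, 3.06 and 5.09 in M-133- DDC samples. The rise was 8.78 (SE 0.81, adjusted p = 9.38e-05) and held with either M-133- untreated sample left out, at 7.03 and 10.53. M+133+ untreated samples were at 5.68, 5.65, 5.92 and 6.4, all above the M-133- DDC samples. That remaining difference was -1.68 (95% interval -3.08 to -0.27) and was not called (adjusted p = 0.104). Spp1 was thus unresolved, and it was called lower with quantile normalization or with only the second repeat array, at an adjusted p of 0.0177 at the least.

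Krt23, a type I keratin described as stress-inducible in liver, was at 3.48, 1.05, 4.84 and 2.35 in M-133- DDC samples. M+133+ untreated samples were at 3.83, 3.81, 3.76 and 4.46 and M-133- untreated samples at -1.50 and -6.08. The M-133- DDC values 3.48, 1.05 and 2.35 lay below every M+133+ untreated sample, and 4.84 lay above them all. The difference of -1.04 had an interval from -2.92 to 0.85, so Krt23 was unresolved. The rise over M-133- untreated cells was 6.72 (adjusted p = 0.0078), and without M-133- untreated sample 2 it was 4.43 (adjusted p = 0.0661). Cp, the ferroxidase ceruloplasmin, was at 4.99, 3.77, 5.57 and 4.62 in M-133- DDC and at 4.44, 4.38, 4.72 and 4.99 in M+133+ untreated samples. Its levels overlapped (difference 0.10, 95% interval -0.61 to 0.82, and -0.68 under quantile normalization, not called), and it stood 2.87 above the M-133- untreated level of 1.94 and 1.78 (adjusted p = 0.0034).

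**Figure D2:**
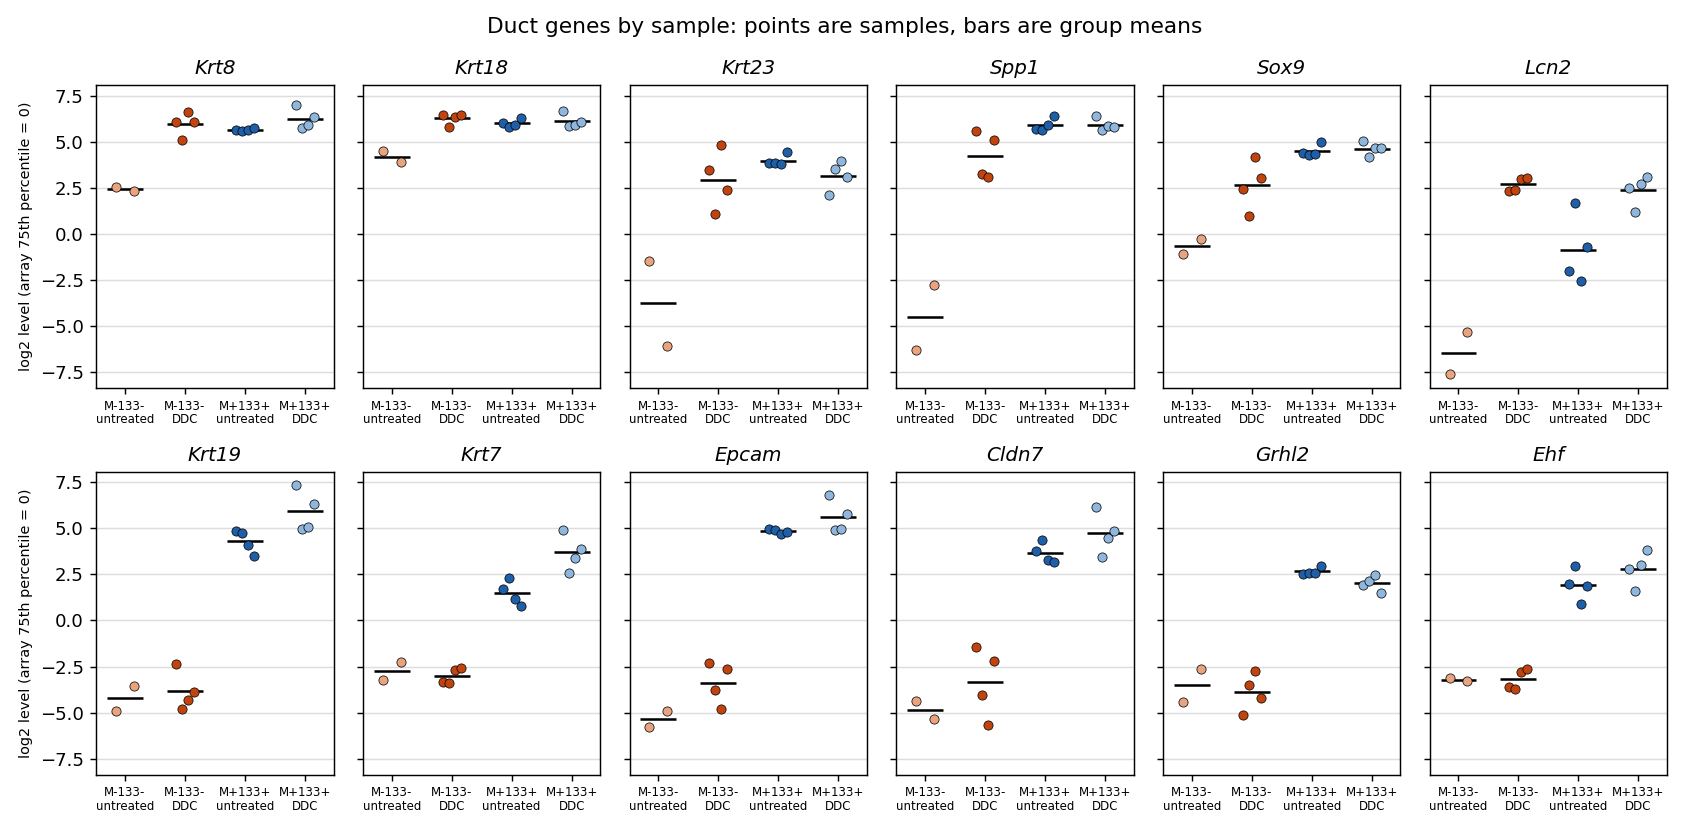
Log2 levels (array 75th percentile = 0) of 12 duct genes in each sample of the 4 groups, with group means as bars. In the upper row, M-133- DDC samples of Krt8, Krt18, Krt23, Spp1, Sox9 and Lcn2 lie above both M-133- untreated samples. In the lower row, Krt19, Krt7, Epcam, Cldn7, Grhl2 and Ehf stay below 0 in every M-133- sample and above 0 in every M+133+ sample.

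The other duct genes not called, with an interval above -2, differed in where M-133- untreated cells stood. This class limits only how far below M+133+ untreated cells a gene could lie. The upper interval end was 7.41-fold higher for Aqp1, 5.55-fold for Slc51a and 5.48-fold for F11r. Lsr, a receptor of tricellular junctions, was at 5.10 ± 0.51 (SD, n = 4) in M-133- DDC, 5.15 ± 0.24 (SD, n = 4) in M+133+ untreated and 3.44 ± 0.78 (SD, n = 2) in M-133- untreated cells. Its rise of 1.66 over M-133- untreated cells was not called (adjusted p = 0.0768). Perp, a desmosomal protein, had a difference of 0.62 and F11r, the junctional adhesion molecule JAM-A, of 0.78. Pkp2, the desmosomal plakophilin, had a difference of -0.09. Among genes of secretion, Aqp1, a water channel that endothelium also carries, was at 6.02, 5.03, 5.69 and 5.94 in M-133- DDC samples, above the 4.08, 4.71, 4.65 and 4.55 of M+133+ untreated samples. This difference of 1.17 was not called (adjusted p = 0.37), and M-133- untreated samples were higher still, at 7.10 and 6.65. The chloride and bicarbonate exchanger Slc4a2 (-0.66), carbonic anhydrase Car2 (-0.70), the organic anion exporter Abcc3 (-0.64) and the bile acid receptor Gpbar1 (-0.09) were also in this class. Pigr, the receptor that carries IgA into bile, differed by -0.29, Prss22, a serine protease, by 0.34 and Spint2, a membrane protease inhibitor, by -1.02. Hhex, a homeobox factor of liver and duct, was lower in every M-133- DDC sample (2.93 to 3.24) than in any M+133+ untreated sample (3.69 to 4.10), a difference of -0.72 that was not called (adjusted p = 0.24). Aqp4 (0.04) and Slc51a (0.72) completed the 18. Both were dim in both groups. Aqp4 was at -5.87 in M-133- DDC and -5.90 in M+133+ untreated cells, and Slc51a at -5.6 and -6.3. For these genes the small difference is between low signals. Hhex, Slc4a2 and Spint2 were called lower under quantile normalization. With only the 2 groups compared in the fit, Hhex and Spint2 were called lower and Aqp1 higher (adjusted p = 0.00915 for Aqp1). Spint2 was also called lower with the mean of each gene's probes, with the slide as a random block and without M-133- DDC sample 1. A second probe of Abcc3 gave -3.13, and with its probes averaged Abcc3 was called lower (-1.88, adjusted p = 0.0355).

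M-133- DDC cells exceeded M+133+ untreated cells in 4 duct genes (3.85%, against 7.4% of all genes tested). Spink1, a secreted trypsin inhibitor, was at 4.28, 2.56, 2.95 and 3.65 in M-133- DDC samples and at -6.43, -6.21, -5.94 and -7.56 in M+133+ untreated samples, where it was well above background on 2 of 5 arrays. The difference was 9.90 (SE 1.4, adjusted p = 0.000264). Slc51b, the beta subunit of the basolateral bile acid exporter whose alpha subunit is Slc51a, was at 0.64, 1.42, 0.11 and 0.06 against -5.52, -5.12, -5.08 and -5.71. The difference was 5.92 (60.4-fold, SE 0.69, adjusted p = 4.92e-05). Slc51a itself stood at -5.56 ± 1.78 and -6.28 ± 0.16 (SD, n = 4 each) and was not called. So the beta subunit was higher in all 4 samples while the alpha subunit had a difference of 0.72 with an interval from -1.04 to 2.47.

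Lcn2, the siderophore-binding protein lipocalin 2, was at 2.33, 2.38, 2.96 and 3.04 in M-133- DDC samples. M+133+ untreated samples were at -2.01, 1.69, -2.56 and -0.73, all lower but widely spread. The difference was 3.58 (11.9-fold, SE 0.83, adjusted p = 0.00899), and with the slide as a fixed block it was not called (adjusted p = 0.0567). Over M-133- untreated cells, at -7.62 and -5.32, Lcn2 rose by 9.15 (adjusted p = 0.000484). Foxa3, a forkhead factor of hepatocytes and endoderm, differed by 2.76 (adjusted p = 0.0437), with samples at 2.43 to 4.21 against -0.43 to 1.27. Its call was lost whichever of the 8 samples was left out, at adjusted p between 0.0501 and 0.114.

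Most duct genes stayed apart, among them the keratins and the adhesion molecule by which ducts are usually recognised. Krt19 (chromosome 11, mm9, 100002392 to 100002451) was at -2.39, -4.82, -4.30 and -3.88 in M-133- DDC samples and at 4.86, 4.77, 4.09 and 3.50 in M+133+ untreated samples. The difference was -8.15 (285-fold, SE 0.66, adjusted p = 2.82e-06). Epcam, an epithelial adhesion molecule, was at -2.33, -3.79, -4.81 and -2.65 against 4.98, 4.90, 4.68 and 4.81. The difference was -8.24 (302-fold, SE 0.59, adjusted p = 7.81e-07). Krt7, the type II partner of Krt19, was at -3.33, -3.41, -2.67 and -2.59 against 1.73, 2.29, 1.14 and 0.78, a difference of -4.48 (SE 0.58, adjusted p = 0.000131). Another probe of Krt7 gave -9.88, so the size of that gap depends on the probe. None of the 3 genes was called between M-133- DDC and M-133- untreated cells. That difference was 0.38 for Krt19 (95% interval -1.33 to 2.10), 1.96 for Epcam (0.42 to 3.49, adjusted p = 0.243) and -0.27 for Krt7 (-1.80 to 1.26).

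Of the 32 keratin, junction and adhesion genes, 20 were lower, 0 higher and 12 not called, with a median difference of -3.07. The share lower was 62.5%, while 7.85% of all genes tested were lower and 7.4% higher. The claudins, which seal or open tight junctions to ions, were all lower in this list. Cldn8 was not well above background on any M-133- DDC array and at least 267-fold lower (adjusted p = 1.14e-07). Cldn7 was at -1.46, -4.07, -5.66 and -2.18 against 3.77, 4.35, 3.26 and 3.20 (difference -6.99, adjusted p = 5.85e-05). Cldn3 was closer, at 0.91, 0.30, -0.13 and -0.77 against 2.62, 2.76, 2.44 and 2.36 (difference -2.47, adjusted p = 0.00285). Cldn4, Cldn6 and Cldn10 differed by -6.24, -6.32 and -5.34. Desmosomes anchor keratin filaments between cells. Dsp, the desmosomal plaque protein desmoplakin, differed by -1.84 (3.59-fold, adjusted p = 0.00769, and 0.0511 with the slide as a fixed block) and Dsg2, a desmosomal cadherin, by -2.73 (adjusted p = 0.00383). Cdh1, the adherens junction protein E-cadherin, was at 0.42, -0.12, -2.48 and 0.25 against 3.02 to 3.19 (difference -3.57, adjusted p = 0.000602). Evpl, a plaque protein, and Itgb6, an epithelial integrin subunit, differed by -7.16 and -6.95, while a second Evpl probe gave -1.97.

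The transcription factors were the list with the largest share called lower, 13 of 19 (68.4%, against 7.85% of all genes). In this list 1 gene was higher (5.26%, against 7.4%) and 5 were not called, with a median of -3.30. Grhl2, a grainyhead factor that supports junction genes, was at -5.14, -3.52, -2.75 and -4.23 in M-133- DDC samples against 2.54, 2.57, 2.59 and 2.95 (difference -6.57, SE 0.60, adjusted p = 8.6e-06). Its relative Grhl1 had overlapping values, at -1.11, -0.28, 0.18 and -1.02 against 0.26, 0.89, 0.01 and -1.81. The Grhl1 difference of -0.39 was unresolved (95% interval -2.10 to 1.32). Elf3 (-6.96) and Ehf (-5.10), epithelial Ets factors, and Ovol2 (-7.03), a zinc finger factor of epithelia, were lower as well, though a second Ovol2 probe gave -0.63. Elf3 varied widely within the group, at -8.60, -2.13, -6.03 and -1.33. Esrp1, an epithelial splicing factor, was at least 17.6-fold lower and not well above background in M-133- DDC cells, while Esrp2 differed by -0.65 and was unresolved. Of the Foxa factors, Foxa1 (-5.77) and Foxa2 (-2.40) were lower, against the higher Foxa3.

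Sox9, a factor of duct and progenitor cells, stood between the classes. It was at 2.43, 0.95, 4.18 and 3.01 in M-133- DDC samples, at 4.37, 4.26, 4.34 and 4.98 in M+133+ untreated samples and at -1.11 and -0.27 in M-133- untreated samples. M-133- DDC samples thus lay above both M-133- untreated and below every M+133+ untreated sample. The difference was -1.85 (3.59-fold, SE 0.52, adjusted p = 0.0264), and the rise over M-133- untreated cells was 3.33 (adjusted p = 0.0219). Both calls were fragile. The former was lost without M-133- DDC sample 1 (adjusted p = 0.06) or 2 (0.0529), or without M+133+ untreated sample 1 (0.0558), 3 (0.0526) or 4 (0.0797), and with the slide as a fixed block (0.185). The rise was lost under 6 of 17 alternatives, among them leaving out M-133- untreated sample 1 (2.91, adjusted p = 0.197), the slide as a fixed block (0.0623), the replicate block (0.0767) and the average of the probes (1.26, adjusted p = 0.244). The other probes of Sox9 gave differences of -5.60 and -3.93 from M+133+ untreated cells. With its probes averaged the difference was -3.79 and stayed called, so the place of Sox9 between the classes depends on the probe.

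Of the 28 transport genes, 11 were lower, 1 higher and 16 not called, with the median nearest to 0 of the duct lists (-2.20). The shares were 39.3% lower and 3.57% higher, against 7.85% and 7.4% of all genes tested. Cftr, the chloride channel of the apical membrane, was at -3.92, -2.64, -2.22 and -3.57 against 1.55, 1.68, 2.36 and 1.83 (difference -4.94, adjusted p = 0.000108). The calcium-activated chloride channel Ano1 was at -2.78, -0.85, -3.19 and -0.69 against 2.06 to 3.35 (difference -4.42, adjusted p = 0.00041). Ano1 had nevertheless risen by 5.17 from M-133- untreated cells (adjusted p = 0.0068), but this call was lost with normexp background correction (1.48, adjusted p = 0.236), with only these groups in the fit (0.163) and without M-133- untreated sample 1 (4.62, 0.087). Kcnk1, a potassium channel, was at least 553-fold lower and not well above background on any M-133- DDC array. The glucose transporter Slc5a1 was at -2.72, -4.16, -8.09 and 0.88, a wide spread, against 2.59 to 2.67 (difference -6.16, adjusted p = 0.00535, and 0.0502 with the slide as a fixed block). The water channel Aqp5 differed by -5.56, while Aqp1 and Aqp4, which was dim in both groups, were not called. Sctr, the secretin receptor, was not well above background on any M-133- DDC array and on only 3 of 5 M+133+ untreated arrays, and it was unresolved.

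Of the 25 secreted, protease and matrix genes tested, 15 were lower, 2 higher and 8 not called, and their median of -5.15 was the farthest from 0 of the 4 duct lists. The shares were 60% lower and 8% higher, against 7.85% and 7.4% of all genes tested. Lamb3, a chain of epithelial laminin, differed by -4.91. Lama3, another laminin chain, differed by -4.08 and was not called (adjusted p = 0.0833). Spint1, a membrane inhibitor of serine proteases, was at -7.35, -6.50, -5.27 and -3.78 against 4.00, 3.42, 3.87 and 3.55 (difference -9.44, adjusted p = 1.12e-06). Its target protease St14, matriptase, differed by -7.30 and the related Prss8 by -5.69. The relative of Spint1, Spint2, had an interval above -2 and was not called, as given above. Mmp7, a matrix metalloproteinase of epithelia, was at least 236-fold lower and not well above background in M-133- DDC cells. Muc1, a membrane mucin, differed by -7.54 and Dmbt1, a mucosal scavenger protein, by -6.37. F2rl1, a protease-activated receptor, was at 2.17 and 0.37 in M-133- DDC samples 1 and 4 but at -7.43 and -8.07 in samples 2 and 3, against 3.59 to 4.18 in M+133+ untreated samples.

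The 59 genes called lower included Ggt1, Glis3, Ocln and Onecut2, whose calls, like that of Sox9, were lost when single samples were left out. Without a sample, their adjusted p reached 0.0926, 0.0767, 0.0746 and 0.0932. Ocln, the tight junction protein occludin, lost it without M-133- DDC sample 2 or 3 or M+133+ untreated sample 1, 3 or 4. Glis3, a zinc finger factor, lost it without sample 1 or 2 of M-133- DDC or sample 1 or 4 of M+133+ untreated cells. Ggt1, a membrane peptidase, lost it without any 1 sample except M-133- DDC sample 2. Onecut2, a cut homeobox factor, kept it only without M-133- DDC sample 3 or M+133+ untreated sample 3. Among the lower genes, 35 were well above background on all 4 M-133- DDC arrays and 4 on none. Replicate spread was wider in M-133- DDC cells, where the median SD of the 104 duct genes was 1.09, than in M+133+ untreated cells, where it was 0.54. Over all genes tested these medians were 1.05 and 0.75.

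How far M-133- cells moved with DDC was expressed as a share of the log2 gap that separated M-133- untreated from M+133+ untreated cells. It could be given for the 68 duct genes called lower in M-133- untreated than in M+133+ untreated cells, a contrast in which 8.8% of all genes were called (5.16% higher, 3.63% lower). The share is a description, since the genes were chosen on the same M-133- untreated samples, and it rests on 2 of them. The median share was 17.6%, and 22 genes had a share of 0 or less. In 16 genes it was above 0 and up to 25%, in 13 above 25% and up to 50%, and in 17 above 50%. Krt19 (4.49%), Epcam (19.2%) and Spint1 (2.89%) were in the lower part, and Krt7 (-6.41%), Cftr (-10.9%) and Grhl2 (-6.31%) had shares below 0, with no call between M-133- DDC and M-133- untreated cells. Cdh1 (42.8%) and Dsp (49.1%) lay in the middle. Sox9 (64.3%), Spp1 (84%), Krt23 (86.6%), Grhl1 (92.9%) and Lsr (97.2%) had crossed most of the gap, and Cp (104%), Krt8 (110%), Krt18 (114%) and Lcn2 (164%) all of it. Among these, Spp1, Krt23 and Grhl1 were unresolved against M+133+ untreated cells. The share of Sox9 holds for its brightest probe only, since its other probes were farther from M+133+ untreated cells (differences -5.60 and -3.93).

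Of the 12 duct genes called higher in M-133- DDC than in M-133- untreated cells, 4 were keratins or junction genes, 2 transcription factors, 2 transport genes and 4 secreted products. In limma 0 duct genes were called lower, against 0.395% of all genes, and 3 were lower at an unadjusted p under 0.05. Besides those described, the genes called higher were Slc51b (4.46, adjusted p = 0.0203), Dsg2 (3.61, adjusted p = 0.0203), Grhl1 (5.19, adjusted p = 0.0203) and Wfdc2, a secreted protease inhibitor (5.05, adjusted p = 0.0459). Krt8, Spp1 and Lcn2 kept the call under all 17 alternatives run, and Krt18 and Cp kept it whichever sample was left out but lost it with only these groups in the fit (adjusted p = 0.066 and 0.101). Krt18 also lost it without the intensity trend (0.0774). Dsg2 lost it without either M-133- untreated sample (adjusted p = 0.0962 and 0.0987), as did Slc51b (0.0588 and 0.162). Grhl1 lost it under 6 alternatives, among them without M-133- untreated sample 1 (0.243) and with the slide as a fixed block (0.351). Wfdc2 lost it under 10 of the 17, among them without that sample (0.411) or without M-133- DDC sample 2 (0.066), 3 (0.0841) or 4 (0.0786).

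**Figure D3:**
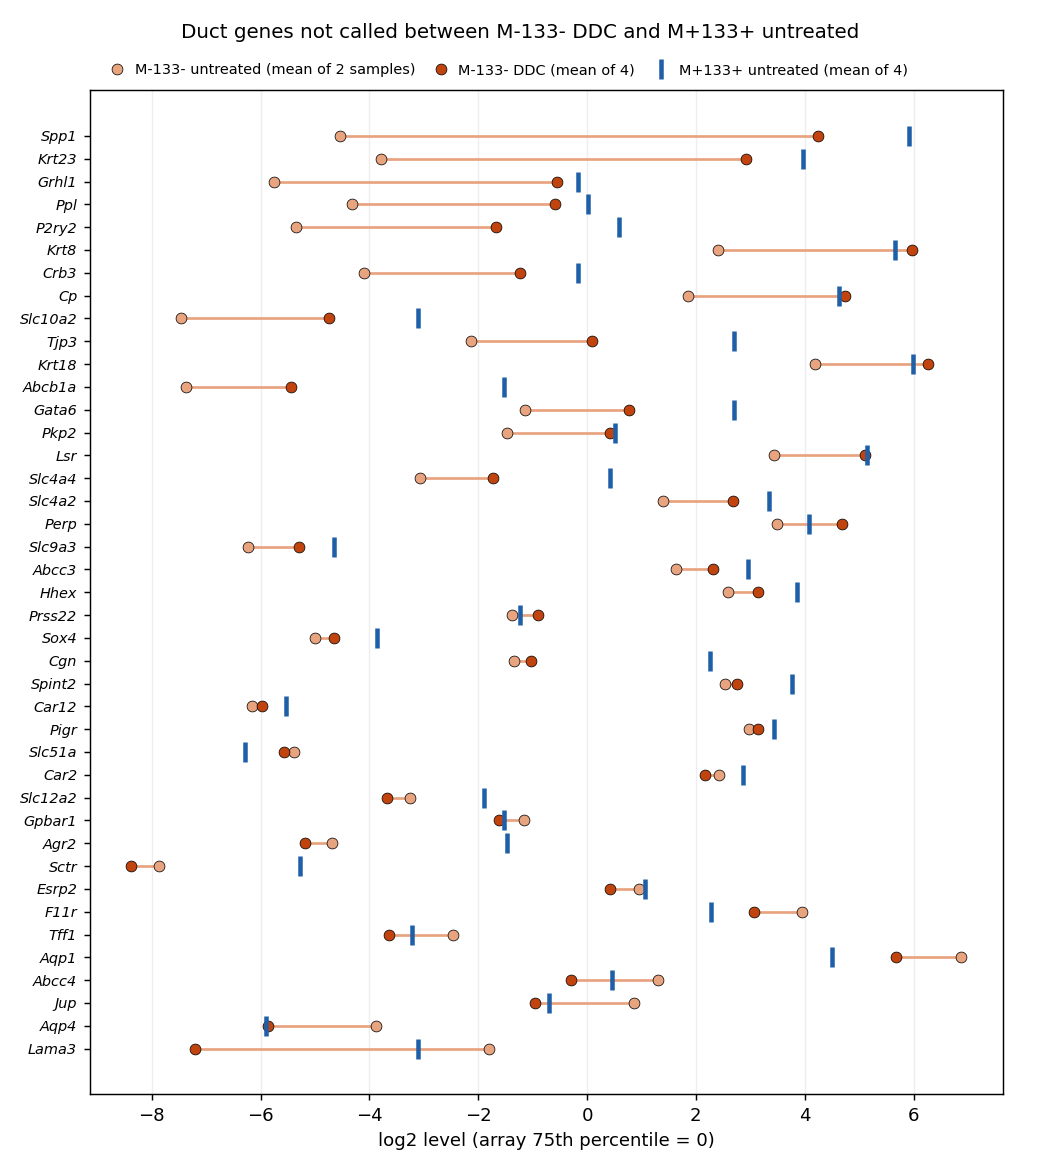
Mean log2 levels (array 75th percentile = 0) of the 41 duct genes not called between M-133- DDC and M+133+ untreated cells, ordered by the difference of M-133- DDC from M-133- untreated cells (lines). Spp1 and Krt23 cover the longest distances towards the M+133+ untreated mark, while genes in the lower part, such as Aqp1 and F11r, were higher in M-133- untreated than in M-133- DDC cells.

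Promoter sequences are shown for genes at either end of this range, since Krt8 and Krt18 are neighbours on chromosome 15 and reached the M+133+ untreated level together, whereas Krt7 on the same chromosome and Epcam did not. The 150 bases before the transcription start are given 5′ to 3′ on the strand of the gene, from RefSeq on GRCm38.p6, with matches to the motifs in capitals. They are chr15:102004343-102004492 (minus strand) for Krt8, chr15:102028066-102028215 for Krt18, chr15:101412253-101412402 for Krt7 and chr17:87635829-87635978 for Epcam (plus strand).
Krt8: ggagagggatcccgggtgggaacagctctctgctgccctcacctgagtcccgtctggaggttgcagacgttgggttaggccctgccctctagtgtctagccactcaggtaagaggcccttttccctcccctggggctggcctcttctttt
Krt18: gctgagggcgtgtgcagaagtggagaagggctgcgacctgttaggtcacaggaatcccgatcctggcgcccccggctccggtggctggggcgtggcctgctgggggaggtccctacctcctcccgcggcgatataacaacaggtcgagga
Krt7: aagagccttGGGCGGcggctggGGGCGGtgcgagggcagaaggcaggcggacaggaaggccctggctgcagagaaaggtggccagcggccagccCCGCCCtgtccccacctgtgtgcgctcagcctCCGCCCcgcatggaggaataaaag
Epcam: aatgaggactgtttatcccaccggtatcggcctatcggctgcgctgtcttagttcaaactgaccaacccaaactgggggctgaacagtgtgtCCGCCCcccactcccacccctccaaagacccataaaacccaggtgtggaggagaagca
Motifs were searched on both strands of the whole 300-base promoter entries, 250 before and 50 after the start. Those given here are GGGCGG (SP and KLF), AACCGGTT (GRHL), TGTTTAC (FOXA), GGAATG (TEAD) and TGANTCA (AP-1), and none of these contains another. The sequence shown held 4 matches of GGGCGG or its reverse in Krt7, 1 in Epcam and none of these motifs in Krt8 or Krt18. Promoters were found for 36 of the 59 duct genes called lower (50 promoters) and for 31 of the other 45 (40 promoters). GGGCGG was in 64% of the former and 45% of the latter promoters, against 35.7% of all 32851 promoters in the table. GGAATG was in 16% and 20%, against 14.7%, and TGANTCA in 10% and 12.5%, against 7.81%. TGTTTAC was in 2% and 2.5%, against 3.65%, and AACCGGTT in none of either, against 0.146%. A match is a string of letters and was not tested as a binding site.

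Genes of the biliary cyst diseases and primary cilium, a sensory organelle of cholangiocytes, showed 5 of 20 members lower and 0 higher, with a median of -1.47. The share lower was 25%, against 7.85% of all genes tested. Pkhd1, which encodes the ciliary protein fibrocystin, was at -7.32, -5.42, -6.71 and -7.91 against 2.10, 2.88, 3.03 and 3.04 (difference -9.60, adjusted p = 8.45e-07). Cys1 (-5.60) and Dcdc2a (-4.87), 2 further cilium proteins, were lower, and Dcdc2a was not called with the slide as a fixed block (adjusted p = 0.059). Wdr19 was lower too (-2.79), a call lost under 7 of 19 alternatives. Kif3a (-0.50) and Pkd1 (-0.23) were among the 15 members not called, of which 10 were unresolved. The difference was negative in 18 of the 20 members.

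The Notch and YAP pathways, which act in duct formation and ductular reactions, had 7 of 30 members lower and 1 higher. These are 23.3% and 3.33%, against 7.85% and 7.4% of all genes tested. Among ligands, Jag1 was at 0.95, 0.75, -0.17 and -1.22 against 2.58, 2.76, 3.39 and 3.22 (difference -2.91, adjusted p = 0.00154), and it was not called with the slide as a fixed block (adjusted p = 0.241). Jag2 differed by -3.03, a call lost without sample 1 of M-133- DDC (adjusted p = 0.0642) or sample 1 (0.0733) or 4 (0.0669) of M+133+ untreated cells. The receptor Notch2 was lower (-2.69) and Notch1 was not called (0.78). Among YAP targets and partners, Ankrd1 (-7.75), Tead4 (-3.63), Ccn1 (-1.85) and Tead1 (-0.97) were lower, while Axl, a receptor tyrosine kinase, was higher (8.23). Yap1 itself differed by 0.13 and was not called.

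Of 19 markers used for liver progenitors, 3 were lower (Prom1, Itga6 and Cd24a) and 3 higher (Afp, Thy1 and Aldh1a1). Each is 15.8% of the list, against 7.85% lower and 7.4% higher over all genes tested. Cd24a, a surface glycoprotein, differed by -2.26 (adjusted p = 0.0122). Afp, the fetal serum protein, was at 2.90, 1.06, 0.82 and 0.02 in M-133- DDC samples, at -3.39, -1.68, -2.26 and -8.70 in M+133+ untreated samples and not well above background on any M-133- untreated array. It was called higher than in M+133+ untreated cells (5.21, adjusted p = 0.0174), but not without M-133- DDC sample 1 (4.64, adjusted p = 0.0515). Thy1, a marker of stromal cells as well, differed by 6.05.

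Many markers of other liver cells also differed between M-133- DDC and M+133+ untreated cells. Over all genes tested, 7.4% were higher and 7.85% lower in that comparison. The defining markers of hepatocytes (Alb, Apoa1, Ttr, Cps1, Hnf4a, Cyp2e1), stellate cells (Lrat, Reln, Dcn, Col1a1, Pdgfrb, Des) and endothelium (Stab2, Lyve1, Kdr, Pecam1, Cdh5) were well above background on all 4 M-133- DDC arrays. Of 24 hepatocyte genes tested, 20 were higher in M-133- DDC than in M+133+ untreated cells, with a median of 5.68, and all 24 were well above background on at least 1 M-133- DDC array. Apoa1, the main apolipoprotein of HDL, was at 6.38, 5.56, 6.41 and 6.07 against -2.45, -2.48, -2.71 and -0.76. The mean level of the list was 2.94 to 3.69 in M-133- DDC, 3.19 to 4.23 in M-133- untreated and -2.03 to -0.75 in M+133+ untreated samples. The ranges of the M-133- groups overlapped, and 0 of the 24 hepatocyte genes were called between them in limma (2 at an unadjusted p under 0.05). Only 1% of all genes were called there, with 2 M-133- untreated samples, so this count cannot show that hepatocyte genes were unchanged. Krt8, Krt18, Cp, Slc51b, Spink1 and Foxa3 are known from hepatocytes too, and the part of hepatocyte RNA in their levels was not tested.

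Stellate cell and fibroblast genes were higher in 20 of 24 cases (median 5.31), and the list mean was 2.43 to 3.59 in M-133- DDC, 0.43 to 0.58 in M-133- untreated and -2.99 to -1.53 in M+133+ untreated samples. Pdgfrb, a receptor of stellate cells, was at 4.10, 3.79, 3.92 and 3.44 against -4.83, -5.12, -9.12 and -4.32. Between M-133- DDC and M-133- untreated cells (2 samples), 3 of the 24 were called higher, against 0.61% of all genes tested. Des, Ngfr and Rgs5, genes of stellate cells and pericytes, were also higher than in M-133- untreated cells, by 5.48, 5.00 and 3.56. These genes rose beside Spp1, Krt8 and Lcn2, and their part in those rises was not tested. Endothelial genes were higher than in M+133+ untreated cells in 11 of 24 cases (median 2.93). Their list mean, -0.46 to 2.83 in M-133- DDC samples, lay below the 3.66 to 4.05 of M-133- untreated samples, with 1 gene called lower in that contrast, Cd209b. Over all genes tested, 0.395% were called lower there.

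Macrophage genes were higher in 6 and lower in 1 of 21 cases, and in limma B, T and NK cell genes were called in 0 of 19 cases and neutrophil genes in 0 of 6 (2 and 1 at an unadjusted p under 0.05). Beside these and the erythroid and mesothelial counts stand 7.4% higher and 7.85% lower over all genes tested, and the shorter lists rest on few genes. Csf1r, the macrophage receptor called lower, lost the call without M-133- DDC sample 1 (adjusted p = 0.0625) or 3 (0.0558) or M+133+ untreated sample 4 (0.0684). Erythroid and platelet genes were higher in 3 of 8 cases, with Alas2, the erythroid heme synthesis enzyme, at 0.57 ± 0.96 against -4.28 ± 1.67 (SD, n = 4 each). Mesothelial genes were lower in 2 and higher in 1 of 8 cases, and Msln, mesothelin, was at 0.74 ± 1.69 in M+133+ untreated and -5.90 ± 0.29 in M-133- DDC cells (SD, n = 4 each). Slpi, a secreted protease inhibitor of that list that epithelia also make, was higher by 5.53, while a second probe, above background on 1 of 4 M-133- DDC arrays, gave -1.11.

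**Figure D4:**
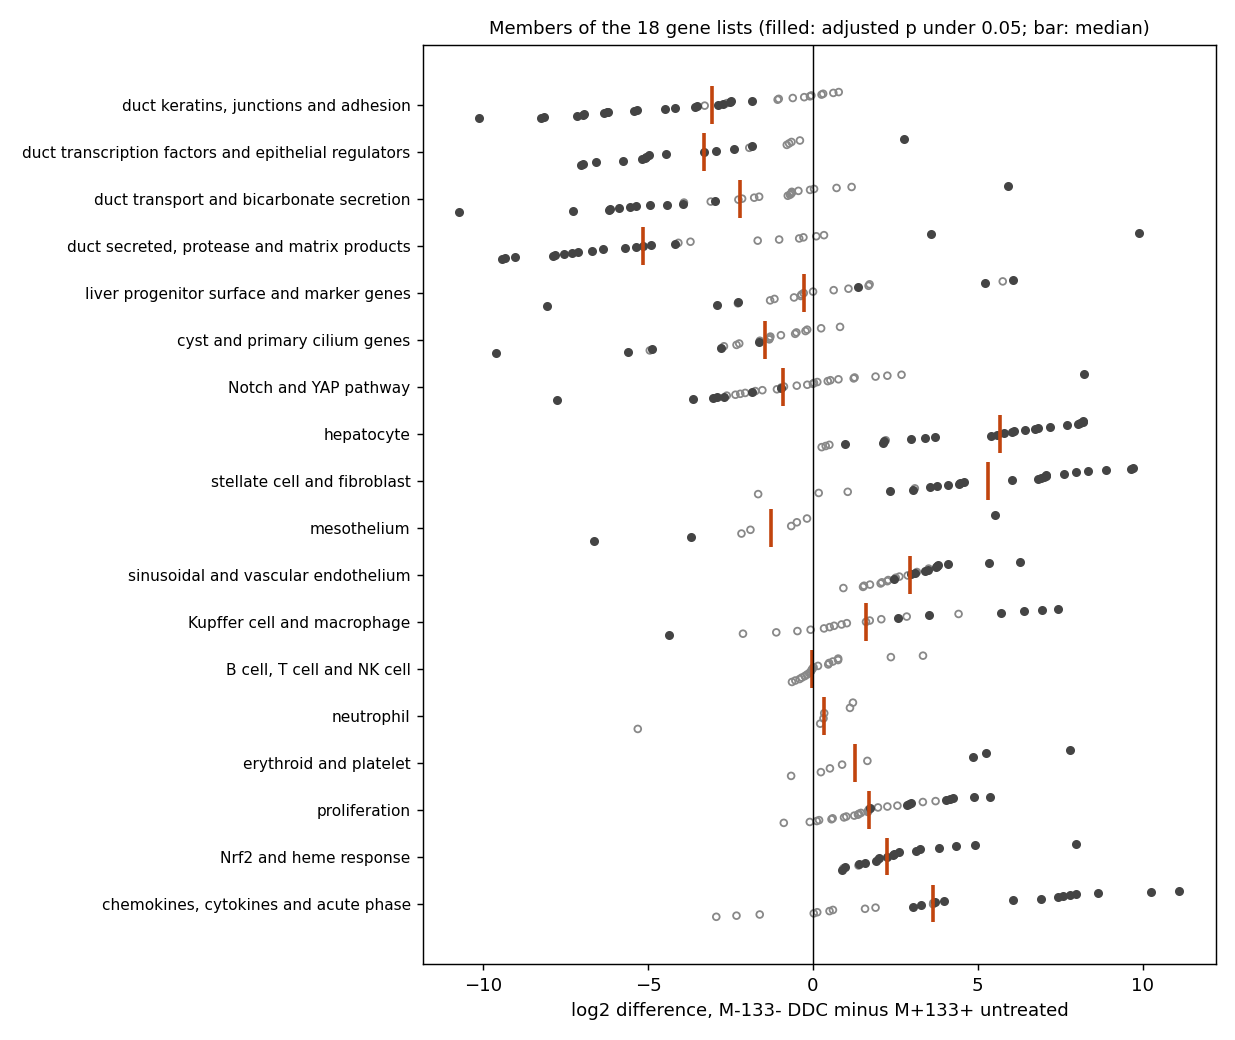
Log2 differences (M-133- DDC minus M+133+ untreated) of the tested members of 18 gene lists, as filled points where the adjusted p was under 0.05 and open points otherwise, with list medians as bars. The 4 duct lists have medians between -5.15 and -2.20, and the hepatocyte and stellate lists stand at 5.68 and 5.31.

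Among response genes, 16 of 19 members of the Nrf2 and heme response were higher in M-133- DDC than in M+133+ untreated cells (median 2.25). Of all genes tested, 7.4% were higher. The glutathione transferase Gsta2 was higher by 4.91 (adjusted p = 1.69e-05), Cyp2a5, a cytochrome P450, by 7.97 and Nqo1, a quinone reductase, by 4.33. With the slide as a fixed block, Cyp2a5 and Nqo1 were not called (adjusted p = 0.0619 and 0.053). Between M-133- DDC and M-133- untreated cells 0 of the 19 were called in limma and 6 were higher at an unadjusted p under 0.05. Only 1% of all genes were called there. Chemokine, cytokine and acute phase genes were higher in 13 of 24 cases (median 3.65), led by Saa3, Orm1, Saa2 and Cxcl9. Of 30 proliferation genes, 9 were higher and 0 lower (median 1.69), among them Ube2c, a ubiquitin-conjugating enzyme of mitosis (4.26), and the mitotic kinase Bub1 (5.38). A second Bub1 probe gave 0.04, and with the slide as a fixed block Bub1 was not called (adjusted p = 0.0551). Against M-133- untreated cells (2 samples), 3 of the 30 proliferation genes were called higher, where 0.61% of all genes were. Birc5, Cdk1 and Kif20a were also higher than in M-133- untreated cells, by 4.03, 4.03 and 3.77.

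The largest differences of all were also read by gene. The 8 largest decreases whose samples did not overlap were Adgrg7, Rassf9, Macc1, Cltrn, Kcnk1, Fras1, ccdc198 and Cldn8, of which Kcnk1 and Cldn8 are duct list members. Adgrg7, an adhesion receptor, was at 4.88, 4.21, 3.57 and 2.80 in M+133+ untreated samples, and in M-133- DDC cells it was at least 1409-fold lower and not well above background. Fras1, an extracellular matrix protein, and Cltrn, a renal and pancreatic membrane protein, were at least 320-fold and 622-fold lower. The 8 largest increases were Serpina3n, Saa3, C8a, Azgp1, Hsd3b3, Cyp2c40, Pdilt and Acot12. Saa3, an acute phase protein, was at 3.65, 3.35, 3.72 and 3.35 against -6.58, -8.70, -8.62 and -6.50 (difference 11.12, adjusted p = 3.42e-05). C8a, a complement component, differed by 11.02 and Acot12, an acyl-CoA thioesterase, was at least 970-fold higher. Probes of Serpina3n, Saa3, Hsd3b3 and Cyp2c40 can read close paralogs, so which member was measured is uncertain.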

How the data were processed

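Per the file headers, the deposited array files give a processed intensity for every spot, computed by Agilent Feature Extraction 10.5.1.1 on annotation of build mm9. The authors' normalization between arrays is not given in the sources used here. Of 41174 probes, 32846 were matched to RefSeq names. The log2 processed signal had the array's 75th percentile subtracted, and repeat spots and then repeat arrays were averaged. Probes called well above background in at least 0.5 of the samples of any group were kept, with the brightest probe per gene. Outlier spots were left out. limma 3.58.1 in R 4.3.3 fitted 4 groups over 14 samples (intensity trend, two-sided, Benjamini-Hochberg adjustment over all genes). Where no array of a group was above background, a fold is a bound ("at least") against the dimmest signal called above background. The scripts were tested on simulated data.

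Members and gene lists were chosen with earlier results of these data known. Named genes were Prom1, duct list members, the 8 largest differences per direction without overlap and up to 4 called members per other list and direction, by size. Other list members are named as examples chosen after their values were seen. Alternatives covered normalization, background, filter, probes, variance model, repeat arrays, slide, replicate block and left-out samples. Replicate numbers did not pair the samples. The authors' deposited table of fold changes was not used here. Counts and medians cover all members tested, and some members are not reported here by name.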

Additional observations from a re-analysis of the deposited data

Results flagged for a closer look

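In groups of 4, a sample was singled out where its gap to the nearest other sample took up more of the group's range than Dixon's 95% limit, which chance passes in about 1 in 20 groups. Of 330 such checks over 165 named genes, 22 passed (6.67%), 8 in M-133- DDC and 14 in M+133+ untreated cells, 6 of the latter in sample 4.

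In M-133- DDC cells, sample 2 stood alone for ccdc198 (-5.71) and Spink4 (-4.62). Sample 3 stood alone for Itgb6 (-5.93), Ppl (0.17) and Vtcn1 (-4.60), and sample 4 for Itga6 (-2.53), Aurkb (-5.95) and Slc51a (-2.92, the others from -6.74 to -6.19).

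In M+133+ untreated cells, sample 4 was the highest for Sox9 (4.98), Krt23 (4.46), Grhl2 (2.95) and Apoa1 (-0.76) and the lowest for Muc1 (-2.14) and Car2 (2.16). Sample 3 was the lowest for Cldn4 (-3.17, the others from 3.25 to 4.04), Vtcn1 (-4.69) and Pdgfrb (-9.12). Sample 1 stood alone for Pkhd1 (2.10), Evpl (4.10) and Pdilt (-8.34), and sample 2 for Bmp2 (1.43) and Orm1 (-1.03).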

How the results depend on the processing

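The medians of the 4 duct lists kept their sign under every alternative run, and 50 of the 59 duct genes called lower kept the call in all 19, as did 2 of the 4 called higher, Slc51b and Spink1. Of the 41 not called, 16 were called under at least 1 alternative. Leaving out a sample gave 2591 to 3533 genes called in the main comparison, 54 to 58 duct genes lower and 3 higher. With the slide as a fixed block 1853 genes and 2 higher duct genes were called. Quantile normalization moved the median of all genes from -0.26 to 0.12 and gave 65 duct genes lower and 3 higher. The difference of Aurkb turned to -2.02 within slide 5.

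M-133- DDC against M-133- untreated cells depended on the setting far more. It gave 234 genes called, but 38 with only these groups in the fit, 142 with the slide as a fixed block, 357 with it as a random block and 73 to 281 with a sample left out, with 73 (61 higher and 12 lower) without M-133- untreated sample 1. Without M-133- untreated sample 2 the larger share turned, to 77 higher and 165 lower, and without M-133- DDC sample 2 it was 133 and 148. The split of 142 higher and 92 lower became 111 and 158 with normexp, 162 and 53 with quantile normalization and 135 and 136 when all probes of a gene were averaged. With only the second repeat arrays it was 155 and 160.

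With the replicate number as a block, 3288 genes, 60 lower and 3 higher duct genes were called in the main comparison and 115 in the other. Same-numbered samples did not deviate together (correlations from -0.03 to -0.004), and none correlated best with its own number, so the numbers were not taken as pairs. Dim probes limit the precision, since 428 called genes had a group with no array above background.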
